A study of Mus musculus with 37 samples.

Results

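The comparison described here sets the ileal lymph node, which drains the last part of the small intestine, against the inguinal lymph node, which drains skin and the inguinal fat and mammary pad. It takes 6 of the 37 deposited libraries, chosen by their labels alone: ileal node replicates 1 to 3 and inguinal node replicates 1 to 3. All 6 came from mice of genotype CD169 Cre KI/KI, Rpl22HA homozygous, and no group carried another allele or a treatment. In RiboTag mice, the large-subunit protein Rpl22 gains a haemagglutinin (HA) tag in cells where Cre recombinase acts, and an antibody to HA pulls down their ribosomes with the bound mRNA. Cre was made from the CD169 (Siglec1) locus, so any cell that has ever used that locus can carry the tag, not macrophages alone. RNA was purified with a PicoPure kit, libraries were made from polyadenylated RNA, and the labels give the cell type as CD169 macrophages. Neither age nor sex is given, and nothing says that the 3 libraries of a node came from separate animals, so the p-values measure the spread between these libraries.

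Lymph nodes filter the lymph of the organ they drain. Macrophages on the lymphatic sinuses capture particles and antigen there, lymphatic endothelium lines the sinuses, and high endothelial venules admit lymphocytes from blood. Nodes of the gut are known for B cells that switch to IgA, for retinoic acid made by dendritic and stromal cells, and for the addressin Madcam1, which lymphocytes bearing the integrin of gut homing recognise. Skin-draining nodes receive dendritic cells from the epidermis and dermis and lie embedded in subcutaneous fat.

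The ileal libraries were deeper. They held 19209133, 31849079 and 18811172 estimated counts, against 3086740, 3285802 and 16823454 in the inguinal libraries. A count of 3 corresponded to 0.0763 to 0.167 CPM (counts per 1000000 of the TMM-adjusted library size) in the ileal libraries, and to 1.11, 1.18 and 0.168 CPM in inguinal libraries 1, 2 and 3. These floors cover counting error only. On the first principal component, which held 57.2% of the variance, inguinal library 3 lay at 1.55, between the ileal libraries at -95.0 to -47.3 and the other inguinal libraries at 79.8 and 124. The Y-linked gene Ddx3y stood at 1.81, 1.53 and 54.2 CPM in the ileal libraries and at 30.5, 0.788 and 1.24 CPM in the inguinal libraries, so each node held 1 library that was high for it. Xist, the RNA of the inactive X, was at 106 to 183 CPM in all 6.

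The label of CD169 macrophages was checked on markers. Siglec1 itself was at 0.574, 0.610 and 0.223 CPM in the ileal libraries and 0.371, 0 and 0.112 CPM in the inguinal libraries. It was near zero and too low to test. Both copies of its locus carry the Cre in KI/KI mice. Whether the knock-in lowers Siglec1 mRNA is not stated, so its level cannot decide on the label. Marco, a scavenger receptor of sinus macrophages, stood at 6638, 6288 and 7644 CPM in the ileal libraries and at 1086, 1322 and 897 CPM in the inguinal libraries. The 1 isotype control, a jejunal node pulled down with a control antibody, held 32.5 CPM. Cd68, a lysosomal protein of macrophages, was at 8.62, 15.5 and 6.08 CPM in ileal nodes and 2.97, 2.76 and 5.05 CPM in inguinal nodes, and its adjusted p of 0.0517 missed the threshold. Rpl22, the tagged gene, was at 154, 173 and 137 CPM in ileal nodes and 84.3, 175 and 206 CPM in inguinal nodes. The groups overlapped, with a log2 difference of -0.01 ± 0.33 (SE; adjusted p = 0.982, edgeR's quasi-likelihood test), whose sign turned in 6 of 18 alternatives. Genes of B cells summed to 2191 CPM or more in each of the 6 libraries.

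Of 18126 genes tested, 1018 (5.62%) were higher and 1144 (6.31%) were lower in the ileal node at an adjusted p under 0.05, which is 11.9% in all. Without regard to the test, the 3 ileal libraries lay above the 3 inguinal libraries for 21.2% of the genes tested and below them for 16.9%. The number called moved with the libraries used: it was 730 without ileal library 1, 346 without ileal library 2, 1480 without ileal library 3, 916 without inguinal library 1, 320 without inguinal library 2 and 5997 without inguinal library 3. It was 615 (464 higher, 151 lower) with the 4 libraries above 10000000 counts, and 578 (348 higher, 230 lower) without the libraries that held Ddx3y. A core of 201 of the higher genes and 57 of the lower genes was called in the same direction whichever single library was left out. The isotype control was not above the ileal mean for 200 of these 201 higher genes. It was not above the inguinal mean for 34 of these 57 lower genes.

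The higher and the lower genes differed in kind. Among the higher genes 94.2% were protein coding, among the lower genes 57.6%, and among all genes tested 78.2%. The isotype control lay above the means of both nodes for 971 of the lower genes (84.9%), for 19 of the higher genes (1.87%) and for 35.6% of all genes tested. The lower genes also stood closer to the ileal level in the deepest inguinal library: the median log2 difference from the ileal mean was -1.79, -1.72 and -0.79 for inguinal libraries 1, 2 and 3, against 1.94, 1.59 and 1.25 for the higher genes (pseudocount 0.5 CPM). The part of unspecific pull-down and depth in the lower calls was not tested. The isotype level is therefore given beside most of the lower genes described.

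**Figure D1:**
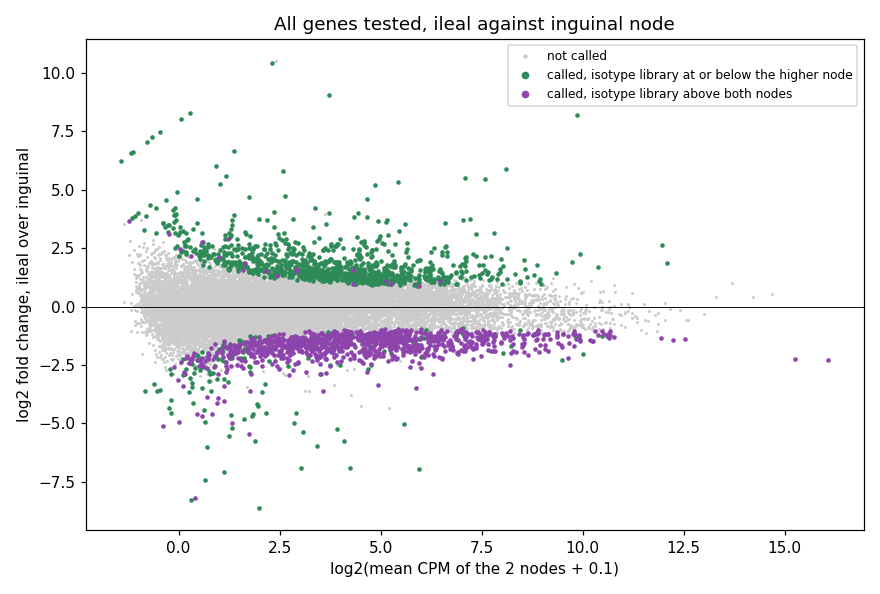
Log2 fold change of ileal over inguinal node (vertical axis) against log2 of the mean CPM of both nodes plus 0.1 (horizontal axis) for the 18126 genes tested. Called genes are green where the isotype library was at or below the higher node and purple where it was above both: 971 of the 1144 lower genes and 19 of the 1018 higher genes are purple.

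Nkx2-3, a homeobox factor of gut-associated vessels and spleen, separated the nodes sharply. It was at 26.3, 24.2 and 27.6 CPM in the ileal libraries, and at 0, 0 and 0.0562 CPM in the inguinal libraries. Every ileal library was high, and the 3 inguinal libraries together held a single count against 2044 in the ileal libraries. The ratio was 589 with a 95% counting interval of 106 to 23290 (exact binomial; adjusted p = 4.25e-06). The ceco-colonic node held 28.9, 35.0 and 31.5 CPM. The super cervical node, which lies in the neck, held 0, 0 and 33.9 CPM. In this gene super cervical library 3 stood at the level of the gut nodes, apart from the other libraries of its label. In Igha and Ccl8, described below, it stood with them. Ccl8 was at 199.9 CPM in it, against 207 and 190 CPM in super cervical libraries 1 and 2. The ceco-colonic libraries held 3.61 to 9.27 CPM of Ccl8. Whether the label of that library is right was not tested.

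Madcam1, for which Nkx2-3 is known to be needed in mice, was at 41.1, 40.5 and 37.2 CPM in ileal nodes and at 4.46, 18.5 and 16.7 CPM in inguinal nodes. The groups did not overlap, and the difference was 1.56 ± 0.40 on the log2 scale (adjusted p = 0.0250). That call was lost without ileal library 1, ileal library 2 or inguinal library 2, where the adjusted p was 0.0677, 0.0938 and 0.0769, and without both libraries that held Ddx3y (adjusted p = 0.0517). In all, the Madcam1 call was lost in 6 of 18 alternatives. The 250 bases before the RefSeq start of both genes (GRCm38.p6) are shown because both were called higher. A link between them was not tested. The letters TNAAGTG, searched on both strands as CACTTNA too, were in neither, and 10.1% of 32851 such windows held them. The Nkx2-3 window is chr19:43612075-43612324 on the plus strand and the Madcam1 window is chr10:79664309-79664558 on the plus strand.
Nkx2-3: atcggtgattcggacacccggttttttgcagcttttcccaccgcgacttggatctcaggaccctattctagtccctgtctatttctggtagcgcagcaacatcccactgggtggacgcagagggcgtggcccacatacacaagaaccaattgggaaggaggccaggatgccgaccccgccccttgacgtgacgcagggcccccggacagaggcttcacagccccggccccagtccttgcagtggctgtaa
Madcam1: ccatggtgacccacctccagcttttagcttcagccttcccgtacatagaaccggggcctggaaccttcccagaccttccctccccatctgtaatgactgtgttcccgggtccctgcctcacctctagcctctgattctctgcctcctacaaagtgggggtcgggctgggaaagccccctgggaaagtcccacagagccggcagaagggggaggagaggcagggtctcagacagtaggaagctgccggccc

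Antibody genes rose by wide margins. Igha, the constant region of IgA, was at 1582, 1760 and 2202 CPM in the ileal libraries and at 8.91, 7.49 and 3.99 CPM in the inguinal libraries. The lowest ileal value was far above the highest inguinal value, and the difference was 8.18 ± 0.44 on the log2 scale (adjusted p = 4.56e-07). Jchain, which joins IgA and IgM into polymers, was at 221, 361 and 216 CPM in ileal nodes and 8.17, 3.15 and 6.29 CPM in inguinal nodes, a log2 difference of 5.48 ± 0.41. IgG constant regions rose as well and were not close to overlapping. Ighg1 was at 364, 793 and 461 CPM in ileal nodes against 11.1, 14.2 and 4.21 CPM in inguinal nodes. Ighg3 was at 275, 423 and 421 CPM in ileal nodes against 7.43, 14.2 and 5.17 CPM in inguinal nodes. Their log2 differences were 5.88 ± 0.51 and 5.47 ± 0.43, and that of Ighg2b was 3.63 ± 0.44.

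Of 20 genes tested in a list of plasma cells and antibody, 9 were higher and 1 was lower, with a median log2 difference of 1.08 against 0.04 over all genes. The list held 6 to 12 higher genes when each library was left out in turn, fewest without ileal library 2. Igha, Ighg1, Ighg2b, Ighg3, Iglc1 and Jchain were called in all 6 of those fits. The plasma cell transcription factor Prdm1 and the surface marker Sdc1 did not pass the test. Prdm1 was at 3.89, 4.98 and 4.69 CPM in ileal nodes and 5.57, 5.91 and 1.69 CPM in inguinal nodes. Sdc1 was at 1.90, 3.0 and 1.95 CPM in ileal nodes and 0.743, 3.55 and 1.57 CPM in inguinal nodes. Both are named after their values were seen. In bulk libraries, more cells of a type and more RNA per cell cannot be told apart. kallisto shares reads among near-identical transcripts, so the split between IgG subclasses is uncertain, and only 3 of the 346 variable segments in the table could be tested.

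**Figure D2:**
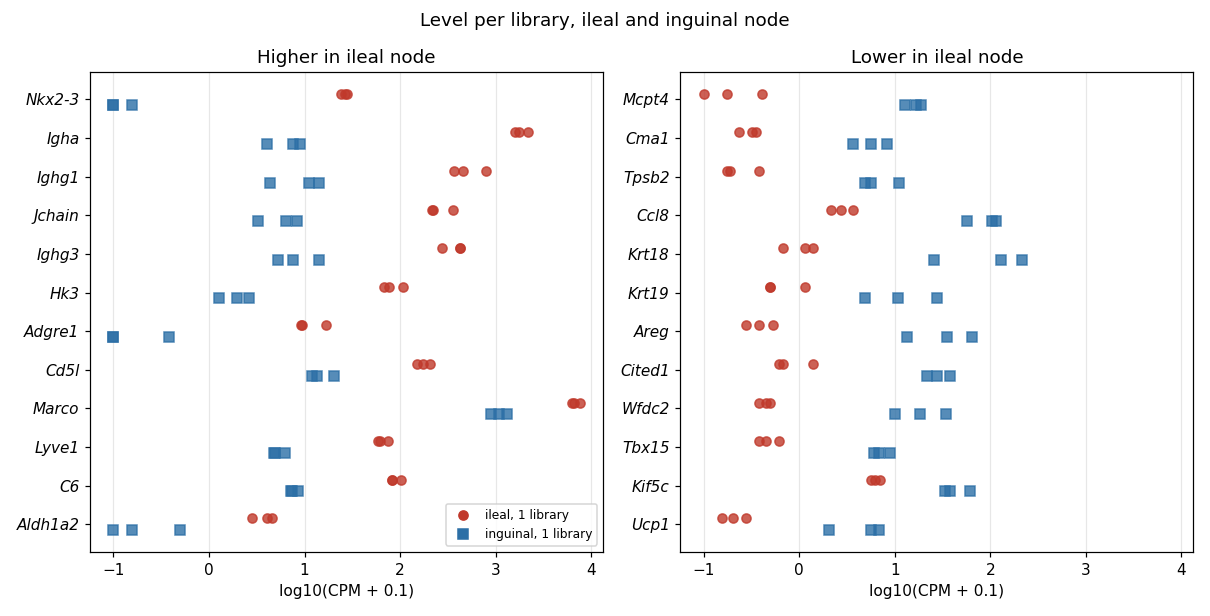
Level of 24 genes in each library, as log10 of CPM plus 0.1, with ileal libraries as red circles and inguinal libraries as blue squares. The left panel holds genes that were higher and the right panel genes that were lower in the ileal node, and in no row do the 3 circles overlap the 3 squares. Genes were picked from those called in every alternative run, and Marco, whose call was lost in the fit of all 36 libraries, was added.

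Scavenger receptors of sinus macrophages were higher in the ileal node. Marco differed by 2.64 ± 0.30 on the log2 scale (adjusted p = 0.000185). Cd5l, a scavenger receptor cysteine-rich protein that macrophages secrete, was at 175, 205 and 150 CPM in ileal nodes and at 20.1, 11.8 and 13.4 CPM in inguinal nodes, a log2 difference of 3.56 ± 0.33. Adgre1, which encodes the macrophage antigen F4/80, was at 9.28, 16.5 and 9.10 CPM in ileal nodes and at 0, 0 and 0.281 CPM in inguinal nodes. Its groups did not overlap, and only 5 counts lay behind the inguinal values. Mrc1, the mannose receptor, was at 51.3, 71.3 and 48.8 CPM in ileal nodes against 8.17, 8.67 and 8.99 CPM in inguinal nodes. Msr1, which takes up modified lipoproteins, was at 13.8, 13.3 and 13.4 CPM in ileal nodes against 0.743, 1.58 and 2.86 CPM in inguinal nodes. Both differed by about the same amount, 2.72 ± 0.31 and 2.71 ± 0.42 on the log2 scale.

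Of 26 sinus macrophage genes tested, 13 were higher and 1 was lower, with a median log2 difference of 1.42. When each library was left out in turn, 8 to 15 were higher, fewest without ileal library 2. The 8 called in all 6 fits were Adgre1, Cd209b, Cd5l, Csf1r, Marco, Mrc1, Msr1 and Stab1. Csf1r, the receptor for the growth factor of macrophages, was at 46.6, 74.8 and 51.0 CPM in ileal nodes and 11.9, 19.3 and 19.5 CPM in inguinal nodes. The gene that fell was Timd4, a receptor for dying cells, which was at 26.3, 35.7 and 26.7 CPM in ileal nodes and 47.5, 81.6 and 77.6 CPM in inguinal nodes, a log2 difference of -1.22. It is named after its values were seen and lost its call when single libraries were left out. The summed level of the list was 8408 to 9764 CPM in ileal nodes and 1776 to 2608 CPM in inguinal nodes, mostly Marco, and 416 CPM in the isotype control.

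Genes for complement and degradation moved the same way as the macrophage receptors. In the complement list 9 of 18 genes were higher and none was lower, with 5 to 9 higher when single libraries were left out, fewest without ileal library 2. C1qb and C1qc, chains of the C1q recognition molecule, differed by 2.51 ± 0.38 and 2.52 ± 0.31 on the log2 scale, and C1qc was at 418, 568 and 432 CPM in ileal nodes and 57.2, 100.1 and 89.9 CPM in inguinal nodes. C6, a protein of the membrane attack complex, was at 82.3, 103 and 81.3 CPM in ileal nodes and 8.54, 7.09 and 7.24 CPM in inguinal nodes, a log2 difference of 3.55 ± 0.31 (adjusted p = 2.17e-05). Fcna, a ficolin that starts the lectin pathway of complement and is no member of the list, was at 45.3, 64.0 and 35.6 CPM in ileal nodes and 1.49, 2.76 and 1.91 CPM in inguinal nodes, a log2 difference of 4.59 ± 0.40.

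Among lysosomal genes 11 of 21 were higher and none was lower, and 2 to 14 were higher when single libraries were left out, fewest without inguinal library 2. Psap, the precursor of the saposins that help break down sphingolipids, was at 6217, 6931 and 7239 CPM in ileal nodes and 1669, 1981 and 1978 CPM in inguinal nodes, a log2 difference of 1.86 ± 0.28. Ctsl, a cysteine protease, was at 216, 255 and 186 CPM in ileal nodes and 29.7, 61.5 and 78.9 CPM in inguinal nodes. Genes of lipid handling gave 8 higher of 21, but 1 to 9 when single libraries were left out, fewest without ileal library 2. Plin2, which coats lipid droplets, was called in all 6 of those fits, at 333, 386 and 397 CPM in ileal nodes and 83.9, 154 and 128 CPM in inguinal nodes.

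Antigen presentation was higher on the whole set of libraries and less stable. Of 15 MHC class II genes and partners 8 were higher, and that count was 1 without ileal library 2 and reached 10 without another. H2-Aa, the alpha chain of I-A, was at 615, 1024 and 511 CPM in ileal nodes and 105, 160 and 364 CPM in inguinal nodes, so inguinal library 3 lay closest to the ileal values. Its log2 difference was 1.77 ± 0.43, and the adjusted p was 0.116 without inguinal library 2, 0.106 without ileal library 2 and 0.0747 without inguinal library 1. Of 20 dendritic cell genes 6 were higher, with 2 to 10 under the same omissions, fewest without ileal library 2. Batf3 and Clec9a, a factor and a receptor of cross-presenting dendritic cells, were called in all 6 fits. Batf3 was at 39.1, 44.9 and 39.4 CPM in ileal nodes and 14.5, 12.2 and 13.2 CPM in inguinal nodes. Clec9a was at 10.3, 16.7 and 9.10 CPM in ileal nodes and 2.60, 1.97 and 2.08 CPM in inguinal nodes.

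**Figure D3:**
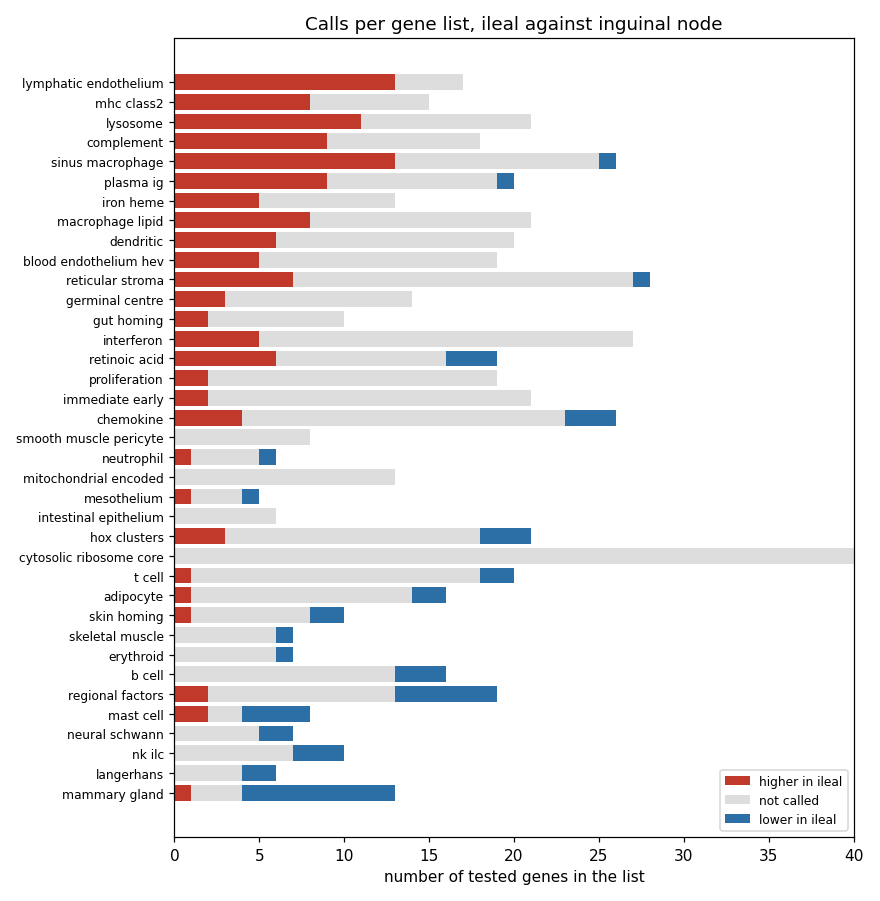
Number of tested genes in each gene list that were higher in the ileal node (red), not called (grey) or lower in the ileal node (blue). Lymphatic endothelium has the largest share of higher genes (13 of 17) and the mammary gland list the largest share of lower genes (9 of 13) among the lists drawn, which have 5 or more tested genes each.

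Lymphatic endothelial genes rose with the macrophage genes. Of 17 tested, 13 were higher and none was lower, with a median log2 difference of 2.08, and 7 to 13 were higher when single libraries were left out, fewest without ileal library 2. Lyve1, a hyaluronan receptor that some macrophages carry too, was at 59.3, 74.7 and 61.1 CPM in ileal nodes and 4.83, 4.73 and 6.12 CPM in inguinal nodes, a log2 difference of 3.59 ± 0.32 (adjusted p = 2.22e-05). Flt4, the receptor for the lymphatic growth factor Vegfc, was at 9.19, 11.9 and 10.1 CPM in ileal nodes and 1.11, 0 and 2.13 CPM in inguinal nodes. Cldn5, a tight junction protein of endothelium, was at 164, 137 and 190 CPM in ileal nodes and 25.3, 28.8 and 30.4 CPM in inguinal nodes. The groups were apart in all 3 genes. The isotype control held 140 CPM over the list, against 679 to 740 CPM in ileal nodes and 206 to 290 CPM in inguinal nodes. Prox1, the factor that defines lymphatic identity, was at 16.0, 14.3 and 20.2 CPM in ileal nodes and 5.57, 9.85 and 3.26 CPM in inguinal nodes, and is named after its values were seen.

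Blood endothelium and stroma gave smaller shares. Of 19 blood endothelial genes 5 were higher and none was lower. Cldn5 and Madcam1, both called higher, are in this list and in the lymphatic list, so the counts of these lists are not separate. The summed levels of the blood endothelial list overlapped, at 569 to 719 CPM in ileal nodes and 475 to 671 CPM in inguinal nodes. Kdr, the main receptor for vascular endothelial growth factor, was at 36.5, 34.1 and 40.8 CPM in ileal nodes and 8.17, 5.12 and 6.91 CPM in inguinal nodes. Of 28 reticular stroma genes 7 were higher and 1 was lower, beside 5.62% and 6.31% of all genes tested. When single libraries were left out, 4 to 11 were higher. Il33, an alarmin cytokine stored in nuclei, was at 18.6, 19.1 and 23.0 CPM in ileal nodes and 2.97, 2.36 and 5.11 CPM in inguinal nodes. Inmt, an indolethylamine methyltransferase, was at 19.5, 26.7 and 23.2 CPM in ileal nodes and 2.97, 4.34 and 4.16 CPM in inguinal nodes. Il33 and Inmt were higher in every ileal library, by 2.40 ± 0.36 and 2.57 ± 0.34 on the log2 scale.

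Genes of the retinoic acid pathway were called in both directions. Of 19 tested, 6 were higher and 3 were lower, beside 5.62% and 6.31% of all genes tested. When single libraries were left out 4 to 7 were higher and 0 to 4 lower, and no lower call held in all 6 fits. Aldh1a2, an enzyme that makes retinoic acid from retinal, was at 3.98, 4.45 and 2.74 CPM in ileal nodes and 0, 0.394 and 0.0562 CPM in inguinal nodes. Its groups did not overlap, and the ratio over 2 inguinal counts was 45.3 with a 95% counting interval of 12.4 to 376 (adjusted p = 0.00153). Rxra, a partner of the retinoic acid receptors, was at 145, 195 and 121 CPM in ileal nodes and 15.2, 35.5 and 40.1 CPM in inguinal nodes. Dhrs3, which turns retinal back into retinol, differed by 2.43 ± 0.39 on the log2 scale, and Tgm2, a transglutaminase that retinoic acid is known to induce, by 2.66 ± 0.44. Bco1, which cleaves beta-carotene, was lower, at 2.17, 1.27 and 2.74 CPM in ileal nodes and 9.28, 14.6 and 5.39 CPM in inguinal nodes, but the isotype control held 36.7 CPM. Its call was lost without ileal library 2 (adjusted p = 0.0695) or inguinal library 2 (adjusted p = 0.0742).

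Several other genes belonged to the 15 with the widest higher margins and kept their call in every alternative run. Hk3, a hexokinase of myeloid cells, was at 76.4, 107 and 68.5 CPM in ileal nodes and 1.86, 1.18 and 2.53 CPM in inguinal nodes, a log2 difference of 5.34 ± 0.39. Gbp2b, an interferon-induced GTPase with close paralogs, was at 53.8, 69.3 and 45.9 CPM in ileal nodes and 0.371, 2.36 and 1.68 CPM in inguinal nodes, a log2 difference of 5.19 ± 0.44. Enzymes of prostanoid synthesis were among them. Ptgis, which makes prostacyclin, was at 39.3, 46.4 and 34.9 CPM in ileal nodes and 4.09, 2.76 and 1.63 CPM in inguinal nodes, and Tbxas1, which makes thromboxane A, was at 41.7, 67.8 and 30.4 CPM in ileal nodes and 4.83, 5.12 and 1.57 CPM in inguinal nodes. The water and glycerol channel Aqp9, the crystallin Cryba4, the membrane receptor Paqr9 and the small membrane protein Smim35 differed by 4.73 ± 0.52, 3.82 ± 0.34, 3.98 ± 0.44 and 4.22 ± 0.57 on the log2 scale. All 3 ileal libraries lay above all 3 inguinal libraries in each of these genes because the choice of the 15 required it.

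Among the lower genes, Ccl8 was well above the isotype level. This chemokine, which is known to draw cells into skin in mice, was at 2.65, 3.53 and 2.07 CPM in ileal nodes and 57.2, 114 and 104 CPM in inguinal nodes. All 3 inguinal libraries were high, at both depths, and the difference was -5.04 ± 0.39 on the log2 scale (adjusted p = 1.08e-05). The isotype control held 1.91 CPM. Of 26 chemokine genes tested, 4 were higher and 3 were lower, beside 5.62% and 6.31% of all genes tested. When single libraries were left out, 2 to 5 were higher and 1 to 4 lower. Ccl12, a relative of Ccl8, was at 3.45, 6.94 and 3.52 CPM in ileal nodes and 9.66, 12.6 and 21.8 CPM in inguinal nodes, with no count in the isotype control, and lost its call without ileal library 1, ileal library 3 or inguinal library 2. The interferon-induced Cxcl10 went the other way, at 12.9, 18.6 and 12.3 CPM in ileal nodes and 2.97, 0.394 and 3.26 CPM in inguinal nodes.

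Proteases of connective tissue mast cells were low in the ileal node. Mcpt4, a chymase, was at 0.309, 0.0763 and 0 CPM in ileal nodes and 12.6, 16.6 and 18.7 CPM in inguinal nodes, a log2 difference of -6.90 ± 0.61 (adjusted p = 2.22e-05). Cma1, another chymase, was at 0.133, 0.254 and 0.223 CPM in ileal nodes and 5.57, 3.55 and 8.14 CPM in inguinal nodes. Tpsb2, a tryptase, was at 0.0884, 0.0763 and 0.279 CPM in ileal nodes and 5.57, 4.73 and 11 CPM in inguinal nodes. These 3 were the highest in inguinal library 3, the deepest one, stayed called when any single library was left out, and stood at 0.764 CPM or below in the isotype control. Other defining mast cell genes were barely there: Fcer1a and Mrgprb2 had no count in any of the 6 libraries, and Cpa3 was at 0.177, 0.102 and 0 CPM in ileal nodes and 1.86, 1.58 and 0.168 CPM in inguinal nodes. Of 8 genes of the list that could be tested, 4 were lower, and 2 were higher, Gata2 and Hpgds, which other cells use too. Over all genes tested, 6.31% were lower and 5.62% higher. Hpgds, Fcer1a, Mrgprb2 and Cpa3 are named after their values were seen. Near-identical protease genes could share reads.

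The 250 bases before the RefSeq start of Mcpt4 (GRCm38.p6, chr14:56062311-56062560, minus strand) are shown because the mast cell proteases moved together. A search for the GATA letters, GATAAG or CTTATC on the other strand, was chosen after the values were seen. They were found once, at -102 to -97 from the start, in capitals here, and were not in the Cma1 window. Of all 32851 windows, 6.55% held them, and the match is a description, not a site.
Mcpt4: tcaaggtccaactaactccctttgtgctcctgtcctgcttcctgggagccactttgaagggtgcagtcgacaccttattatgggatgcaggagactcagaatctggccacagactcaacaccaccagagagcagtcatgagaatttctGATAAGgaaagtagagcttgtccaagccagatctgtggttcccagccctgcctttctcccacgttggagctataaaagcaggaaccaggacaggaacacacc

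Epithelial genes of the mammary gland list were low in the ileal node and uneven among the inguinal libraries. Krt18, a keratin of simple epithelia, was at 0.574, 1.30 and 1.06 CPM in ileal nodes and 25.6, 130 and 213 CPM in inguinal nodes, a log2 difference of -6.95 ± 0.74 (adjusted p = 0.000392). Its partner Krt8 was at 0.574, 0.915 and 0.279 CPM in ileal nodes and 5.94, 24.8 and 69.0 CPM in inguinal nodes. Areg, a growth factor of the mammary ducts, was at 0.177, 0.432 and 0.279 CPM in ileal nodes and 13.4, 35.5 and 63.5 CPM in inguinal nodes. In each gene inguinal library 3 was the highest and inguinal library 1 the lowest, and the nodes did not overlap. The isotype control held 27.9 CPM of Areg, above inguinal library 1 and within the inguinal range, against 7.26 CPM of Krt18 and 1.15 CPM of Krt8. Krt8 lost its call without ileal library 1 (adjusted p = 0.0517). Cited1, a coregulator of estrogen-responsive transcription, and Wfdc2, a secreted protease inhibitor of epithelia, differed by -5.25 ± 0.45 and -5.98 ± 0.52 on the log2 scale, with 0 and 0.382 CPM in the isotype control. Of 13 mammary gland genes tested, 9 were lower and 1 was higher, the casein Csn2, at 2.03, 3.79 and 0.614 CPM in ileal nodes and 0, 0.394 and 0.225 CPM in inguinal nodes. Csn2 is named after its values were seen. The milk genes Wap and Csn1s1 had no count in the 6 libraries. The summed level of the list was 39.7 to 249 CPM in ileal nodes, 153 to 797 CPM in inguinal nodes and 83.7 CPM in the isotype control. In ileal nodes most of it was Glycam1, a ligand on high endothelial venules that is also made in milk.

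Some factors that mark body position were called, in both directions. Of 19 regional transcription factors tested, 2 were higher and 6 were lower, beside 5.62% and 6.31% of all genes tested. When single libraries were left out 1 to 2 were higher and 2 to 8 lower, and 2 of the lower calls held in all 6 fits. The summed levels of the list overlapped, at 98.5 to 118 CPM in ileal nodes and 92.7 to 141 CPM in inguinal nodes. The isotype control held 307 CPM over the list, above all 6 libraries. Tbx15, a T-box factor of limb, skin and fat, was at 0.354, 0.508 and 0.279 CPM in ileal nodes and 6.68, 5.91 and 8.76 CPM in inguinal nodes, a log2 difference of -4.18 ± 0.45. En1, a homeobox factor of ventral limb and trunk skin, was at 0.133, 0.0254 and 0.223 CPM in ileal nodes and 2.60, 2.76 and 1.35 CPM in inguinal nodes. Both were low in every ileal library. The isotype control held 1.53 CPM of each, which for En1 was above inguinal library 3 at 1.35 CPM.

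Of 21 Hox genes tested, 3 were higher and 3 were lower, beside 5.62% and 6.31% of all genes tested. None kept its call under every omission of a library. The isotype control held 658 CPM over the Hox list, against 172 to 267 CPM in ileal nodes and 194.5 to 324 CPM in inguinal nodes. Hoxb7 was at 26.1, 18.5 and 25.9 CPM in ileal nodes and 3.71, 9.46 and 9.88 CPM in inguinal nodes, and lost its call without ileal library 1 (adjusted p = 0.0695) or inguinal library 2 (adjusted p = 0.0739). Hoxc9 was at 11, 7.73 and 13.2 CPM in ileal nodes and 32.3, 55.6 and 22.7 CPM in inguinal nodes, with 55.4 CPM in the isotype control. It lost its call without ileal library 2 (adjusted p = 0.0730) or inguinal library 2 (adjusted p = 0.0775). Hoxd10 was at 3.45, 3.46 and 6.08 CPM in ileal nodes and 0.371, 1.97 and 1.18 CPM in inguinal nodes. Hox genes set position along the body axis in the embryo and stay on in stromal cells.

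Fat genes did not separate the nodes as a list: of 16 adipocyte genes 1 was higher and 2 were lower, beside 5.62% and 6.31% of all genes tested. Ucp1, the uncoupling protein of brown and beige fat, was at 0.177, 0.102 and 0.0558 CPM in ileal nodes and 6.68, 5.52 and 1.97 CPM in inguinal nodes, a log2 difference of -5.19 ± 0.69, and the isotype control held 2.29 CPM. Fabp4, the fatty acid carrier of fat cells and some macrophages, was at 2633, 2364 and 3518 CPM in ileal nodes and 735, 2624 and 2423 CPM in inguinal nodes, where the groups overlapped. Fabp4 is named after its values were seen. Genes of the intestinal lining gave no call among 6 tested, and genes of the epidermis none among 4. Of the 40 core ribosomal protein genes and the 13 mitochondrially encoded genes tested, none was called in either direction.

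The B cell genes called lower were high in the isotype control. Of 16 B cell genes 3 were lower and none was higher, beside 6.31% and 5.62% of all genes tested. The other 13 were not called, and the median log2 difference of the list was 0.22, against 0.04 over all genes. Bank1, an adaptor of the B cell receptor, was at 404, 286 and 573 CPM in ileal nodes and 1603, 1693 and 722 CPM in inguinal nodes, with 6549 CPM in the isotype control. Ms4a1, which encodes CD20, was at 102, 86.8 and 109 CPM in ileal nodes and 305, 293 and 164 CPM in inguinal nodes, with 332 CPM in the isotype control. In both genes the deepest inguinal library was the one nearest to the ileal node. Summed B cell levels were 2191 to 3140 CPM in ileal nodes, 3840 to 4876 CPM in inguinal nodes and 12530 CPM in the isotype control. Of 20 T cell genes, 1 was higher and 2 were lower, among them Il7r, the receptor for interleukin 7. Il7r differed by -1.68 ± 0.35 on the log2 scale. It was at 45.8, 42.1 and 47.1 CPM in ileal nodes and 206, 150 and 76.9 CPM in inguinal nodes, with 327 CPM in the isotype control. The calls of Bank1, Ms4a1 and Il7r were lost without ileal library 2 (adjusted p of 0.0657 for Il7r to 0.09997 for Ms4a1) and without inguinal library 2 (0.0679 for Il7r to 0.0887 for Ms4a1).

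Several of the genes with the widest lower margins were also high in the isotype control. H2-M2, an MHC class I-like gene, was at 21.9, 15.8 and 18.8 CPM in ileal nodes and 157, 162 and 97.8 CPM in inguinal nodes, with 482 CPM in the isotype control. The olfactory receptor gene Or12d17 was at 5.74, 3.86 and 6.70 CPM in ileal nodes and 66.8, 74.9 and 25.3 CPM in inguinal nodes, with 250 CPM in the isotype control. Kif5c, a kinesin of neurons, was at 6.98, 6.07 and 5.53 CPM in ileal nodes and 61.3, 37.8 and 33.2 CPM in inguinal nodes, with 84.1 CPM in the isotype control. These calls held in every alternative run, with log2 differences of -2.88 ± 0.32, -3.34 ± 0.42 and -2.82 ± 0.33, and all 3 genes were highest in the library pulled down with the control antibody. Mup22, a major urinary protein with near-identical copies, and Smim22 differed by -4.98 ± 0.58 and -5.35 ± 0.52 on the log2 scale, with 3.06 and 0 CPM in the isotype control.

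**Figure D4:**
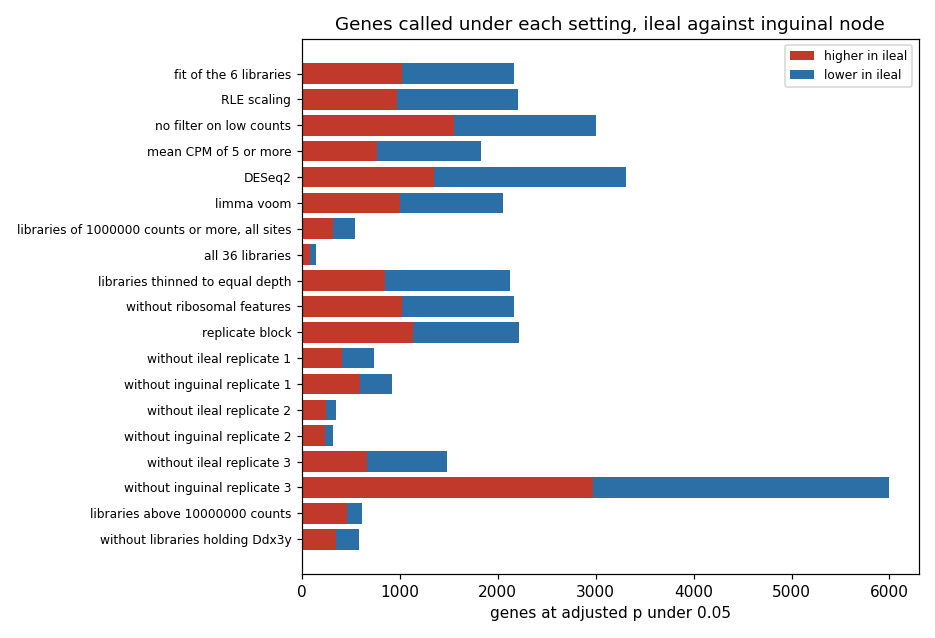
Number of genes called in the ileal against inguinal comparison (horizontal axis) under each setting, split into higher (red) and lower (blue). The count was 2162 in the fit of the 6 libraries, 143 with all 36 libraries, 320 without inguinal library 2 and 5997 without inguinal library 3.

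Another gut node and another superficial node gave a second comparison in separate libraries: ceco-colonic, with 2373771 to 4194213 counts, against super cervical, with 1283757 to 9067640 counts, 3 libraries each of the same genotype. There 24 of 10982 genes (0.219%) were called, of which 13 (0.118%) were higher and 11 lower. Leaving out 1 library moved that count between 4, without super cervical library 2, and 146, without super cervical library 3, which was high in Nkx2-3. Of the 1018 genes higher in the ileal node, 712 were tested there, 49.9% of them were positive, against 42.8% of the 10966 genes tested in both, and 3 were called higher, which is 0.421% of those tested and 23.1% of the higher calls of the second pair. Of the 1144 lower genes, 916 were tested there, 57.3% were negative, against 57.2% of all, and 4 were called lower, which is 0.437% of those tested and 66.7% of the 6 lower calls tested in both. No gene was called in opposite directions. Without super cervical library 3, 11 genes were called higher and 41 lower in both pairs, and 1 was called in opposite directions.

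The genes called in both pairs were Igha, Jchain and Hoxb7 on the higher side and Ccl8, Mcpt4, Smim22 and Scart1 on the lower side, named after their values were seen. Igha and Ccl8 kept that call in the second pair whichever of its libraries was left out. The other 5 lost it without super cervical library 2 or any 1 of the 3 ceco-colonic libraries, and all 7 kept it without super cervical library 3. Igha was at 1071, 1144 and 1525 CPM in ceco-colonic nodes and 49.7, 51.7 and 80.5 CPM in super cervical nodes, a log2 difference of 4.24 ± 0.34 (adjusted p = 0.000517). Ccl8 was at 9.27, 3.61 and 4.43 CPM in ceco-colonic nodes and 207, 190 and 199.9 CPM in super cervical nodes, a log2 difference of -5.15 ± 0.38. Mcpt4 had no count in the ceco-colonic node and was at 10.4, 8.13 and 11.5 CPM in the super cervical node. For Ccl8 and Mcpt4 the differences in the pairs of nodes were not shown to differ (adjusted p = 0.956 and 0.588 for the difference).

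The pairs did differ elsewhere. The difference between the comparisons passed the threshold for 136 of 13750 genes (0.989%), 0.545% positive and 0.444% negative, and it passed for 134 genes without super cervical library 3. The 136 included 56 of the genes higher in the ileal node and 38 of the lower genes. Mrc1 was at 9.27, 4.64 and 1.97 CPM in ceco-colonic nodes and 30.0, 11.4 and 17.9 CPM in super cervical nodes, so its log2 difference was -1.91 ± 0.59 there against 2.72 ± 0.31 in the ileal and inguinal pair (adjusted p = 0.00552 for the difference). C6 and C1qc also differed between the pairs, at -1.35 ± 0.62 and -0.05 ± 0.24 there. Marco was 3142, 1175 and 1028 CPM in ceco-colonic nodes and 2443, 2127 and 784 CPM in super cervical nodes, and the adjusted p for its difference was 0.0672. Ighg1 was at 53.7, 32.5 and 31.5 CPM in ceco-colonic nodes and 18.5, 40.0 and 20.4 CPM in super cervical nodes, where the groups overlapped. The difference between the pairs passed the test for Ighg1 and for Igha (adjusted p = 0.00314 for both), and the direction of Igha was shared.

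**Figure D5:**
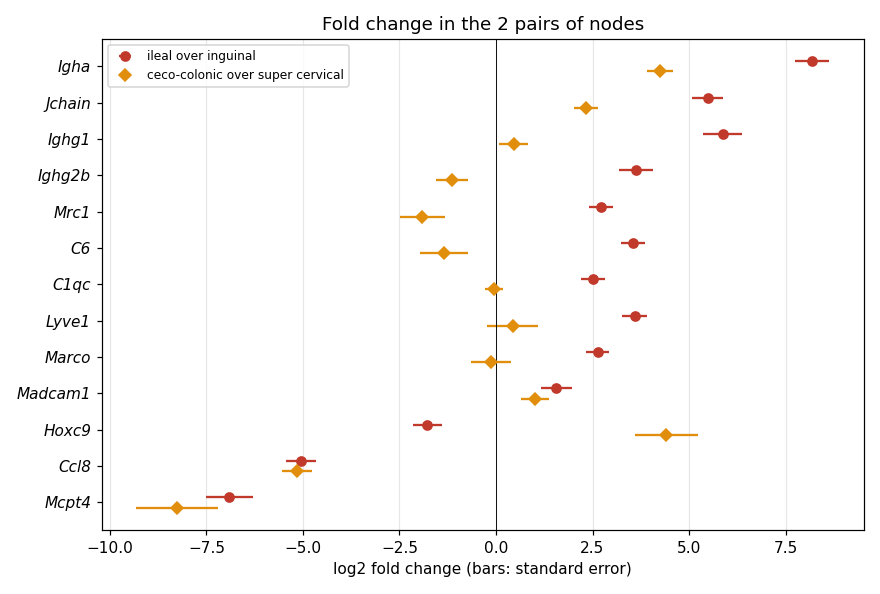
Log2 fold change with its standard error for 13 genes in the ileal over inguinal pair (red circles) and in the ceco-colonic over super cervical pair (orange diamonds). Igha, Jchain, Ccl8 and Mcpt4 lie on the same side of 0 in both pairs, whereas Mrc1, C6, Ighg2b and Hoxc9 lie on opposite sides. The ceco-colonic node held no count of Mcpt4, so the size of its fold change in that pair depends on the prior count of the fit.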

How the data were processed

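The authors' deposited table holds estimated counts per gene for 56351 genes, of which 32.8% of values were not whole. Per the submitters' processing notes, kallisto, limma and edgeR were used, with no version or role. The notes name GRCm39 and mm10 together, so no coordinates but those of RefSeq promoter windows are given. A scaling step before deposit is not stated. Estimated counts were rounded, filtered with filterByExpr (minimum count 10, minimum total 15), scaled by TMM and tested with edgeR 4.0.16 in R 4.3.3 (robust quasi-likelihood fit of the 6 libraries, Benjamini-Hochberg adjustment over all genes tested, threshold 0.05). Standard errors were recovered from F statistics. CPM of other libraries were placed on the same TMM scale. The isotype control entered no model. The test was run on simulated counts with a single dispersion for all genes. That check does not cover the uneven spread between these libraries.

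Members and gene lists were chosen with earlier results of these data known. Lists are described by counts and medians, with no set test. Each count is to be read against 5.62% higher and 6.31% lower over all genes tested. Genes named are Siglec1, Rpl22, Marco, Cd68, Csf1r, Adgre1, Nkx2-3, Madcam1 and Igha, up to 15 per direction by fold change among called genes with 10 CPM or more in the higher group and no overlap, and up to 5 called members of a list, or 2 by level. Predicted genes, immunoglobulin variable segments, pseudogenes and genes of neighbouring tissues were left out of the 15. Alternatives used DESeq2 1.42.0, limma 3.58.1, other scalings, filters and libraries. Values of 2 called genes are not reported here.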

Additional observations from a re-analysis of the deposited data

Results flagged for a closer look

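For 23 of the named genes called in the ileal against inguinal comparison, the test of the difference itself (edgeR's quasi-likelihood test over 12 libraries) found another change than in the ceco-colonic against super cervical pair. Values are log2 differences between the pairs, ileal and inguinal minus ceco-colonic and super cervical. Those of Adgre1, Hk3, Cited1, Hoxb7 and Hoxc10 rest on libraries at or near 0 counts or on genes that the second pair alone could not test, so their sizes depend on the prior count of the fit and are neither exact values nor bounds.

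Among antibody genes the difference was 3.73 for Igha, 5.23 for Ighg1, 4.58 for Ighg2b, 4.84 for Ighg3 and 2.96 for Jchain. Among macrophage and complement genes it was 7.06 for Adgre1, 3.59 for Cd5l, 4.41 for Mrc1, 2.75 for C1qb, 2.40 for C1qc and 4.65 for C6. It was 4.64 for the hexokinase Hk3, 2.76 for the GTPase Gbp7, 2.12 for the endothelial receptor Kdr and 2.48 for the nuclear receptor Rxra.

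On the negative side it was -7.09 for Cited1, -3.11 for the T-box factor Eomes, -6.33 for Fam81a, -2.84 for H2-M2, -3.17 for Or12d17, -8.06 for Hoxb7, -8.60 for Hoxc10 and -6.44 for Hoxc9. Adgre1 was at 0.545, 0.515 and 0 CPM in the ceco-colonic node and at 0, 0.976 and 1.16 CPM in the super cervical node. Of these 4 nodes it was high in the ileal node alone. In the jejunal node, outside these 4, Adgre1 was at 0, 15.7 and 3.71 CPM, where 3 counts correspond to 10.4, 2.62 and 11.1 CPM. Cited1 was at 1.64, 0.515 and 3.94 CPM in the ceco-colonic node and at 0, 0.976 and 0.482 CPM in the super cervical node. Of the 4 nodes it was high in the inguinal node alone. Hk3, not tested in that pair alone, was at 10.1, 3.09 and 1.97 CPM in the ceco-colonic node and at 2.31, 2.28 and 4.72 CPM in the super cervical node. Hoxb7 was at 9.81, 5.67 and 10.3 CPM in the ceco-colonic node and had no count in the super cervical node, and Hoxc10, not tested there either, was at 3.82, 3.61 and 5.91 CPM and at 0, 0 and 0.0963 CPM. The isotype control held 105 CPM of Fam81a, above every inguinal library, and 55.8 CPM of Eomes, above the inguinal libraries 1 and 3. Hoxc9 was at 28.3, 33.0 and 54.2 CPM in the ceco-colonic node and at 2.31, 3.90 and 0.193 CPM in the super cervical node.

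When each of the 12 libraries was left out in turn, the call held every time for C1qc, C6, Cited1, Fam81a, H2-M2, Hk3, Hoxc10, Hoxc9, Igha, Ighg1, Ighg2b and Mrc1. It was lost without super cervical library 3 for Hoxb7, without ceco-colonic library 2 for Ighg3 and Jchain, and without ileal library 2 or super cervical library 3 for Adgre1. C1qb lost it without ileal library 2 or ceco-colonic libraries 2 or 3. The others, Cd5l, Eomes, Gbp7, Kdr, Or12d17 and Rxra, lost it when any 1 of 5 to 7 libraries was left out.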

How the results depend on the processing

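The count of 2162 called genes stayed within 1.5 times under RLE scaling (2206), no filter (2999), a mean of 5 CPM (1831), limma voom (2055), libraries thinned to equal depth (2120) and removal of ribosomal features (2165), although without the filter the higher genes numbered 1554. DESeq2 called 3304 (1955 lower). With all libraries of 1000000 counts or more it was 543 (311 higher, 232 lower, 88 named genes, 78 list genes), and with all 36 libraries 143 (79 higher, 64 lower, 52 named genes, 33 list genes). Both alternatives added after seeing the data lowered it: 615 (464 higher, 151 lower, 91 named genes, 109 list genes) with libraries above 10000000 counts, where the lone inguinal library is assumed to vary like the others, and 578 (348 higher, 230 lower, 95 named genes, 101 list genes) without libraries holding Ddx3y. Leaving out 1 library gave 320 to 5997 genes (238 to 2974 higher, 82 to 3023 lower), 77 to 138 named genes, against 143, and 69 to 236 list genes, against 172. For the second pair it gave 4 to 146 calls, against 24, with 98 by DESeq2 and 13 by limma voom, and for the difference 21 to 939, against 136, with 736 by DESeq2. The cause was not tested. Of 143 named genes past the threshold, 47 kept their call in every alternative run and none turned its sign. Rpl22 turned to 0.0797 with no filter and 0.0655 by limma voom, with -0.30 to 0.24 when 1 library was left out.

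The replicate numbers did not pair the libraries: same-numbered deviations correlated at 0.122, -0.0794 and -0.250. With the replicate block 2212 genes were called, 48 in the second pair, and Rpl22 was 0.0764. Depth limits low genes in inguinal libraries 1 and 2, where a level of about 1 CPM rests on 3 counts, and the node is confounded with depth there. The isotype control is 1 library of another node.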

Other observations

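Some members of gene groups not described above passed the test as well. Over all genes tested, 5.62% were higher and 6.31% were lower. Of 13 genes of iron and heme handling, 5 were higher and none was lower, with 0 to 8 higher when single libraries were left out. Slc40a1, the iron exporter ferroportin, was at 11.9, 16.1 and 9.21 CPM in ileal nodes and 1.49, 1.97 and 3.71 CPM in inguinal nodes, and Blvrb, a biliverdin reductase, was at 220, 254 and 204 CPM in ileal nodes and 63.5, 95.4 and 112 CPM in inguinal nodes. Of 27 interferon-induced genes 5 were higher, with 1 to 9 under the same omissions. Gbp3, a GTPase of that response, was at 77.0, 89.1 and 62.7 CPM in ileal nodes and 16.0, 17.7 and 29.9 CPM in inguinal nodes.

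Of 19 proliferation genes 2 were higher, with 1 to 8 when single libraries were left out, beside 5.62% of all genes tested. Mki67, a nuclear protein of dividing cells, was at 118, 127 and 109 CPM in ileal nodes and 25.3, 26.0 and 41.2 CPM in inguinal nodes, a log2 difference of 1.92 ± 0.30. Of 3 eosinophil genes tested, 1 was higher and 1 was lower. Prg2, the major basic protein of eosinophils, was at 4.11, 8.90 and 6.03 CPM in ileal nodes and 0, 0 and 0.337 CPM in inguinal nodes. Il5ra went the other way and was called lower, a call that was lost in 7 of 18 alternatives. The eosinophil genes Epx, Ear1 and Ear6 had no count in the 6 libraries. S100a8 was higher in the ileal node, at 8.26, 8.59 and 9.49 CPM against 3.71, 0.394 and 0.899 CPM in inguinal nodes, while its partner in calprotectin, S100a9, was lower, at 1.41, 0.407 and 1.0 CPM in ileal nodes against 9.28, 2.76 and 1.91 CPM in inguinal nodes. Neither call held in all 6 fits that left out a library: S100a8 lost it without inguinal library 2, and S100a9 lost it in 10 of 16 alternatives, with an adjusted p of up to 0.433.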
